A study of Mus musculus with 12 samples.

Results

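The sphingosine kinases, the enzymes that remove sphingosine 1-phosphate, the sphingomyelin synthases and the ceramide synthases are represented here by 10 genes: Sphk1, Sphk2, Sgpl1, Sgpp1, Sgms1, Sgms2, Cers2, Cers4, Cers5 and Cers6. They were chosen by name from the 55487 genes of the count table, with Sphk1 chosen for its low level when a FoxO1 inhibitor was added to loperamide. RNA came from Min6 cells, an established mouse beta cell line derived from an insulinoma, in 12 libraries that form 4 groups of 3. For 48 h the cells received DMSO alone, 1 µM AS1842856 (FoxOi, a FoxO1 inhibitor), 5 µM loperamide (an opioid receptor agonist sold against diarrhoea), or 1 µM AS1842856 with 5 µM loperamide (FoxOi_Loperamide). The labels give no further genotype or age, and a single line stands in for the beta cell. Whether each library was its own culture is not stated in them, so p-values measure only the spread between these libraries, which may be technical.

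Total counts ran from 10640485 to 19499216 per library. All 8 beta cell markers were detected in every group, and their summed level ran from 58922 to 82618 CPM (counts scaled to library size) in DMSO, 32657 to 37377 in FoxOi, 60418 to 61011 in loperamide and 25028 to 29459 in the combination. A leukocyte and macrophage list moved with the inhibitor, from 2.24 to 3.52 CPM in DMSO to 18.6 to 19.3 in FoxOi, 1.37 to 1.65 in loperamide and 4.35 to 5.06 in the combination. Cd68 made up most of it, Adgre1 was at 0 in DMSO and loperamide, and Ptprc had at most 2 counts in any group. Csf1r had mean levels of 0.576 CPM in DMSO, 1.12 in FoxOi and 0.306 in loperamide. In the combination it was lower, at 0.0752 CPM, unlike the list as a whole. An alpha cell list, mostly Gcg, ran from 582 to 817 CPM in DMSO, 879 to 1260 in FoxOi, 106 to 167 in loperamide and 528 to 700 in the combination. A ductal list, mostly Krt7, ran from 249 to 338, 125 to 163, 165 to 225 and 116 to 169 CPM in the same order. A delta cell list, mostly Sst, ran from 36.3 to 75.1, 51.3 to 142, 6.47 to 15.9 and 8.31 to 17.1 CPM, with Hhex at 0 in DMSO, FoxOi and loperamide. The part of these markers in the results was not tested. In RNA from whole cultures, fewer cells of a type and less RNA per cell cannot be told apart.

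Ceramide is the hub of sphingolipid metabolism. It is built by ceramide synthases that each prefer fatty acids of a certain length, and is turned into sphingomyelin by sphingomyelin synthases or broken down to sphingosine. Sphingosine kinases phosphorylate sphingosine to sphingosine 1-phosphate, which signals through its own receptors and is either dephosphorylated for reuse or cleaved irreversibly by a lyase. In beta cells ceramide is best known for its link to damage by saturated fatty acids.

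RefSeq promoter windows (GRCm38.p6) were found for 10 of the 10 genes, 24 windows in all, and the 250 bases upstream of each start site were searched on both strands. The letters searched were GTAAACA (forkhead), TGANTCA (AP-1), CACGTG (E-box) and TGACGTCA (CRE), none of which contains another. Of the 32851 windows in the table, 3.17% hold the forkhead letters, 6.75% the AP-1 letters, 6.02% the E-box letters and 1.55% the CRE letters. Sphk1 and Sgms2 were the genes with the largest fitted changes between the combination and one of the single treatments. Stretches upstream of some of their start sites are therefore shown, chosen after the matches were seen. Each stretch lies inside the span of its gene, so it is upstream of an internal start site and not of the whole gene. Capitals mark a match, each stretch runs 5′ to 3′ on the gene's strand, and none includes an exon of GENCODE M21. The first lies at chr11:116532194-116532443 (plus strand), the second at chr3:131490231-131490407 (minus strand) and the third at chr3:131490661-131490910 (minus strand).
Sphk1, E-box: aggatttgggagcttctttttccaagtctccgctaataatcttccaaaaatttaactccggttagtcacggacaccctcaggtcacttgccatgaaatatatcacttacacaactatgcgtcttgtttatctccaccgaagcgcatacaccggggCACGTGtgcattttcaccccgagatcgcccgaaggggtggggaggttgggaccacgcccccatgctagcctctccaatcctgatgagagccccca
Sgms2, AP-1 and forkhead: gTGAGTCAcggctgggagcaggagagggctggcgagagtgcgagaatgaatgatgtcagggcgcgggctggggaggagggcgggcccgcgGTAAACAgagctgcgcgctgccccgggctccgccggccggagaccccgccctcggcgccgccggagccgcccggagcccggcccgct
Sgms2, AP-1: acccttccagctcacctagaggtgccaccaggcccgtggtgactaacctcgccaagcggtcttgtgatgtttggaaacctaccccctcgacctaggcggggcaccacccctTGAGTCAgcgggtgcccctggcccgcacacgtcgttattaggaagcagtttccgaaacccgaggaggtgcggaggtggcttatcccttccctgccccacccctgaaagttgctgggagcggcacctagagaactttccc
Of the 5 windows of Sphk1, 2 overlapping windows share the E-box match and 2 others that overlap share an AP-1 match. Of the 6 windows of Sgms2, 2 hold AP-1, 1 the forkhead and 1 an E-box match. Sgms1 had 1 window with AP-1, Cers2 and Cers6 had 1 each with an E-box, and the windows of Sphk2, Sgpl1, Sgpp1, Cers4 and Cers5 held none of these letters. A match describes the letters of a window and does not show binding.

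Each gene was tested in edgeR's quasi-likelihood fit over all 12 libraries, with Benjamini-Hochberg adjustment over 16808 genes and a threshold of 0.05. Sphk1 was tested only in FoxOi against DMSO, because its loperamide and combination libraries chose the list, and the combination against loperamide alone is described without a test for every gene. In FoxOi against DMSO 5 of the 10 genes rose (Sgpl1, Sgms2, Cers2, Cers4 and Cers5), 1 fell (Sgpp1) and 4 did not pass, where 40.9% of all genes passed, 20.7% higher and 20.3% lower. In loperamide against DMSO 3 of 9 rose (Sgpl1, Cers2 and Cers5) and none fell, against 31.9% of all genes (16.1% higher and 15.8% lower), which is near the share of the list. In the combination against DMSO 5 of 9 rose (Sgpl1, Sgms1, Cers2, Cers4 and Cers5), 3 fell (Sphk2, Sgpp1 and Sgms2) and 1 did not pass, against 45.5% (22.3% higher and 23.2% lower). In the combination against FoxOi 2 of 9 rose (Sgpl1 and Cers5) and 1 fell (Sgms2), against 26.6% (11.5% higher and 15.1% lower), again near the share of the list. Over the 10, 9, 9 and 9 genes tested, the medians of the log2 fold changes were 0.37, 0.16, 0.38 and -0.10. Over all genes they were 0.01, 0.02, 0.01 and 0.00. Only the first of the list's medians includes Sphk1, so the others are not medians of the whole list. In the combination against loperamide, the contrast that chose the list, 5 fitted differences were above 0 and 5 below, with no test of the 10 genes. Of all genes, 38.9% passed there (18.4% higher and 20.5% lower). The first 3 comparisons share the DMSO libraries, and the last 2 share the combination libraries. With the replicate number as a block, 8, 4, 8 and 4 of the genes passed, beside 56.1%, 48.7%, 59% and 44.6% of all genes in the same fit. The first of these counts includes Sphk1, whose spread also rests on the libraries that chose it.

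**Figure D1:**
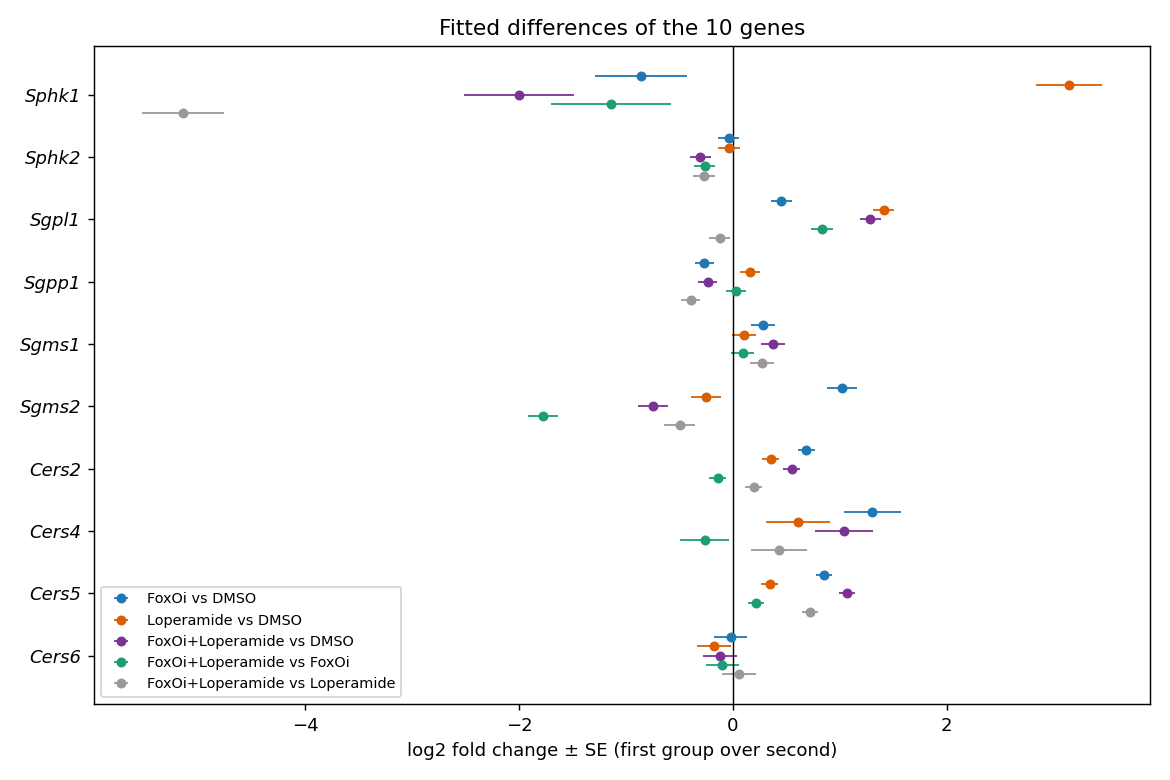
Fitted log2 fold change (x axis, first group over second) of the 10 genes (y axis) in 5 comparisons, with points for the estimate and bars for ± 1 SE. Sphk1 spans the widest range, from -5.14 for the combination against loperamide to 3.15 for loperamide against DMSO, while every point of Cers6 lies between -0.17 and 0.06.

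Sphk1 (ENSMUSG00000061878, chr11:116530925-116536675 in GRCm38, plus strand), the kinase known for its induction by growth factors and stress, was a rare transcript except in loperamide. It had 1.28, 0.996 and 0.587 CPM in the DMSO libraries (20, 16 and 8 counts). In FoxOi it had 0.581, 0.714 and 0.307 CPM (10, 13 and 6 counts). In loperamide it had 11.9, 7.60 and 6.54 CPM (128, 100 and 91 counts). In the combination it had 0.272, 0.125 and 0.305 CPM (5, 2 and 5 counts). The 3 loperamide libraries stood above all others, and the 3 combination libraries stood below all others, the highest of them just under the lowest FoxOi library.

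The group means of Sphk1 were 0.954 ± 0.348 CPM in DMSO, 0.534 ± 0.207 in FoxOi, 8.69 ± 2.85 in loperamide and 0.234 ± 0.0958 in the combination (SD, n = 3 each). As a description of the values that chose the gene, the mean was 9.11-fold higher in loperamide than in DMSO and 37.1-fold lower in the combination than in loperamide, the latter from 12 against 319 counts. The fitted log2 differences were 3.15 ± 0.31 (SE) and -5.14 ± 0.38. The combination also stood below DMSO, by -1.997 ± 0.513, and below FoxOi, by -1.14 ± 0.56, with no test for either. Mean Sphk1 was 1.79-fold lower in FoxOi alone than in DMSO, with overlapping groups (log2 fold change -0.86 ± 0.43, adjusted p = 0.127, edgeR). With the replicate block this difference passed (-0.83, adjusted p = 0.0449). Loperamide was the only group in which every library passed 0.610 CPM, the level of the filter on low counts, while each of the other 9 genes passed it in all libraries of all groups. An antisense gene over Sphk1, Gm29292, had 8 counts in all libraries together.

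Sphk2 (ENSMUSG00000057342, chr7:45709467-45718002), the kinase found in the nucleus and on mitochondria and the endoplasmic reticulum, was far more abundant per length (15.3 against 0.244 FPKM in DMSO) and moved little. It had 69.9, 65.6 and 56.2 CPM in DMSO, 62.0, 61.9 and 62.6 in FoxOi, 60.4, 68.1 and 58.7 in loperamide, and 49.5, 57.7 and 48.2 in the combination. The combination held the lowest values, but its highest library overlapped the lowest of DMSO. Sphk2 fell in the combination against DMSO (log2 fold change -0.30 ± 0.10, adjusted p = 0.0228, edgeR), and that call was lost with the 2 groups fitted alone (adjusted p = 0.0731), with unfiltered FPKM (0.0574) and without DMSO replicate 1 (0.0817), DMSO replicate 2 (0.0766), combination replicate 1 (0.0775) or combination replicate 3 (0.0916). Against FoxOi it lay at -0.26 ± 0.10 (adjusted p = 0.0657), which passed with the replicate block (-0.27, adjusted p = 0.00332) and without combination replicate 2 (0.0366). Neither compound alone changed it past the threshold (-0.04 ± 0.10, adjusted p = 0.780, and -0.03 ± 0.10, adjusted p = 0.821). Sphk2 overlaps Rpl18 and Dbp on the opposite strand, with 69682 and 2772 counts over all libraries, and the strand setting of the counting is not given in the sources used here, so shared reads cannot be told apart.

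**Figure D2:**
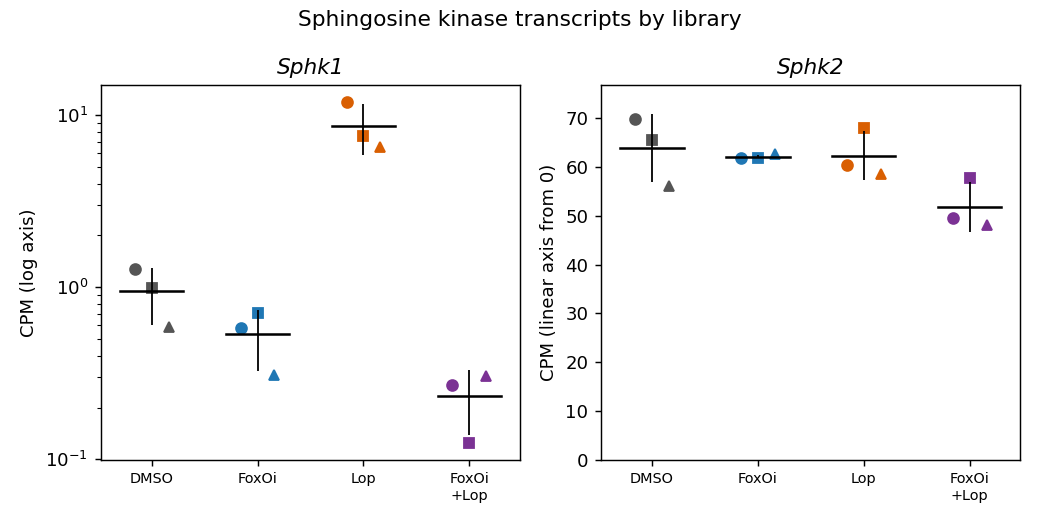
CPM of Sphk1 (left, log axis) and Sphk2 (right, linear axis from 0) in the 12 libraries by group, with circles, squares and triangles for replicates 1, 2 and 3 and lines for the mean ± SD (n = 3). Sphk1 lies between 6.54 and 11.9 CPM in loperamide and at or below 1.28 in every other library, and Sphk2 lies between 48.2 and 69.9 CPM throughout.

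Per length, on the FPKM scale, Sphk1 made up 1.92%, 1.60% and 1.11% of the summed level of both kinases in DMSO. The share was 0.993%, 1.22% and 0.523% in FoxOi and 17.4%, 10.7% and 10.7% in loperamide. It was 0.584%, 0.231% and 0.672% in the combination. Sphk2 was thus the main kinase transcript in every library, also in loperamide.

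Sgpl1 (ENSMUSG00000020097, chr10:61098642-61147703), the lyase that cleaves sphingosine 1-phosphate irreversibly, rose with each compound. It had 177, 167 and 194 CPM in DMSO and 235, 233 and 269 in FoxOi. It had 489, 420 and 524 CPM in loperamide and 462, 402 and 451 in the combination. Every treated library lay above every DMSO library, and the loperamide and combination libraries overlapped each other above all FoxOi libraries. Mean Sgpl1 was 1.37-fold higher in FoxOi than in DMSO (log2 fold change 0.45 ± 0.10, adjusted p = 0.00214, edgeR). It was 2.66-fold higher in loperamide (1.41 ± 0.10, adjusted p = 2.20e-07) and 2.44-fold higher in the combination (1.29 ± 0.10, adjusted p = 1.30e-07). With the inhibitor present in both groups, loperamide raised it by 0.83 ± 0.10 (adjusted p = 2.05e-05).

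Sgpp1 (ENSMUSG00000021054, chr12:75714249-75735729), a phosphatase of the endoplasmic reticulum that turns sphingosine 1-phosphate back into sphingosine, was lower where the inhibitor was present. It ran from 51.7 to 62.9 CPM in DMSO and 60.3 to 64.8 in loperamide, and from 43.9 to 49.1 in FoxOi and 45.3 to 48.0 in the combination. The 6 libraries with the inhibitor lay below the 6 without it. Sgpp1 fell in FoxOi against DMSO (-0.27 ± 0.09, adjusted p = 0.0304, edgeR) and in the combination against DMSO (-0.24 ± 0.09, adjusted p = 0.0471), and did not pass in loperamide (0.16 ± 0.09, adjusted p = 0.208) or in the combination against FoxOi (0.03 ± 0.09, adjusted p = 0.849). Both calls were lost without the filter on low counts (adjusted p = 0.0636 and 0.163), with the 2 groups fitted alone (0.102 and 0.124) and on unfiltered log2(FPKM + 1) (0.0635 and 0.109), and the second also on filtered log2(FPKM + 1) and log2(FPKM + 0.1) (0.0654 on both). The first was also lost without DMSO replicate 3 (0.0785), FoxOi replicate 1 (0.067) or FoxOi replicate 3 (0.081). The second was also lost without DMSO replicate 2 (0.0533), DMSO replicate 3 (0.180), combination replicate 1 (0.136), combination replicate 2 (0.0842) or combination replicate 3 (0.0818).

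The ratio of Sgpl1 to Sgpp1, both in FPKM, was 4.69, 4.41 and 4.22 in DMSO. It was 7.33, 6.48 and 8.12 in FoxOi, 10.3, 9.52 and 11.8 in loperamide, and 13.9, 11.4 and 12.9 in the combination. No DMSO or FoxOi library overlapped another group, and the loperamide and combination libraries overlapped between 11.4 and 11.8.

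Sgms2 (ENSMUSG00000050931, chr3:131318985-131491411), the sphingomyelin synthase of the plasma membrane, was higher than in DMSO with the inhibitor alone and lower with both compounds. It had 53.5, 45.9 and 63.1 CPM in DMSO and 93.8, 117.6 and 119 in FoxOi. It had 41.6, 43.7 and 50.8 CPM in loperamide and 28.6, 30.1 and 38.0 in the combination. All FoxOi libraries lay above every other library and all combination libraries below, while DMSO and loperamide overlapped. Sgms2 rose 2.03-fold in FoxOi against DMSO (log2 fold change 1.02 ± 0.14, adjusted p = 3.66e-05, edgeR). It fell in the combination, to a mean 1.68-fold lower than in DMSO (-0.75 ± 0.14, adjusted p = 0.000563) and 3.42-fold lower than in FoxOi (-1.77 ± 0.14, adjusted p = 3.78e-07). In loperamide alone it lay at -0.25 ± 0.14 (adjusted p = 0.190), which passed with the replicate block (-0.25, adjusted p = 0.0121). The combination stood at -0.50 relative to loperamide, given without a test.

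Sgms1 (ENSMUSG00000040451, chr19:32122727-32389714), the sphingomyelin synthase of the Golgi, had a narrower range, from 13.5 to 16.0 CPM in DMSO, 17.3 to 18.6 in FoxOi, 13.7 to 17.2 in loperamide and 18.4 to 20.2 in the combination. The 6 libraries with the inhibitor were at or above the highest of those without it. Sgms1 rose in the combination against DMSO (0.38 ± 0.11, adjusted p = 0.0117, edgeR), a call lost without DMSO replicate 2 (0.0585). In FoxOi alone it lay at 0.28 ± 0.11 (adjusted p = 0.0518), which passed with the replicate block (0.0153), and loperamide gave 0.11 ± 0.11 (adjusted p = 0.511). An opposite-strand gene over Sgms1, 2700046G09Rik, had 1253 counts. The ratio of Sgms2 to Sgms1 in FPKM was 2.64, 2.695 and 3.39 in DMSO, 4.31, 5.01 and 5.22 in FoxOi, 1.96, 2.01 and 2.93 in loperamide, and 1.20, 1.18 and 1.63 in the combination. It was highest in the FoxOi libraries and lowest in the combination libraries, with neither overlapping another group.

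Cers5 (ENSMUSG00000023021, chr15:99734881-99772885), a synthase of palmitoyl ceramide, rose in every comparison tested. It had 51.0, 52.1 and 55.9 CPM in DMSO and 91.0, 98.8 and 97.6 in FoxOi. It had 67.9, 64.4 and 69.6 CPM in loperamide and 112, 107 and 114 in the combination. The 4 groups did not overlap, in the order DMSO, loperamide, FoxOi, combination. Mean Cers5 was 1.81-fold higher in FoxOi than in DMSO (log2 fold change 0.85 ± 0.08, adjusted p = 6.79e-07, edgeR), 1.27-fold higher in loperamide (0.35 ± 0.08, adjusted p = 0.00326) and 2.10-fold higher in the combination (1.07 ± 0.08, adjusted p = 5.13e-08). The step from FoxOi to the combination was 0.22 ± 0.07 (adjusted p = 0.0450), and it was lost without the filter on low counts (0.134), with the 2 groups fitted alone (0.0574), and without any one of the 3 FoxOi or 3 combination libraries (0.0640 to 0.124). Its fitted difference between the combination and loperamide was 0.72, given without a test.

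Cers6 (ENSMUSG00000027035, chr2:68861441-69114282), the other synthase of palmitoyl ceramide, passed in no comparison. It ran from 37.8 to 57.2 CPM in DMSO, 40.6 to 52.0 in FoxOi, 35.1 to 47.8 in loperamide and 36.0 to 45.9 in the combination, so all 4 groups overlapped. Its log2 fold changes were -0.02 ± 0.16 (adjusted p = 0.931), -0.17 ± 0.16 (0.446), -0.12 ± 0.16 (0.579) and -0.10 ± 0.16 (0.701) in FoxOi, loperamide and the combination against DMSO and in the combination against FoxOi, by edgeR. These SEs leave room for changes of the size seen for Sgpp1.

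Cers2 (ENSMUSG00000015714, chr3:95314791-95323599), the synthase of very long chain ceramides, rose with each compound against DMSO. It had 82.2, 75.4 and 79.3 CPM in DMSO and 129, 117.99 and 135 in FoxOi. It had 103, 99.3 and 101 CPM in loperamide and 110, 113 and 124 in the combination. All treated libraries lay above the DMSO libraries, and the FoxOi and combination libraries overlapped. The log2 fold changes against DMSO were 0.69 ± 0.08 in FoxOi (adjusted p = 9.22e-06, edgeR), 0.35 ± 0.08 in loperamide (adjusted p = 0.00382) and 0.55 ± 0.08 in the combination (adjusted p = 6.21e-05). The combination lay at -0.14 ± 0.08 relative to FoxOi (adjusted p = 0.218). Cers2 overlaps Setdb1 on the opposite strand, which had 12305 counts over all libraries, so reads in the shared stretch cannot be told apart.

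Cers4 (ENSMUSG00000008206, chr8:4493026-4531680), a synthase of long chain ceramides, was rare, with 321 counts in all 12 libraries. It had 0.831, 0.747 and 1.25 CPM in DMSO and 1.97, 2.80 and 2.15 in FoxOi. It had 1.12, 1.37 and 1.73 CPM in loperamide and 2.29, 1.69 and 1.77 in the combination. FoxOi and the combination lay above DMSO without overlap, and loperamide overlapped DMSO and the combination. Cers4 rose 2.45-fold in FoxOi (log2 fold change 1.30 ± 0.27, adjusted p = 0.00122, edgeR) and 2.03-fold in the combination (1.04 ± 0.28, adjusted p = 0.00649). The second call was lost on log2(FPKM + 1), with the filter (0.0591) and without it (0.124), a scale that shrinks low genes. Loperamide alone gave 0.61 ± 0.30 (adjusted p = 0.142), and the combination against FoxOi -0.26 ± 0.23 (adjusted p = 0.449).

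**Figure D3:**
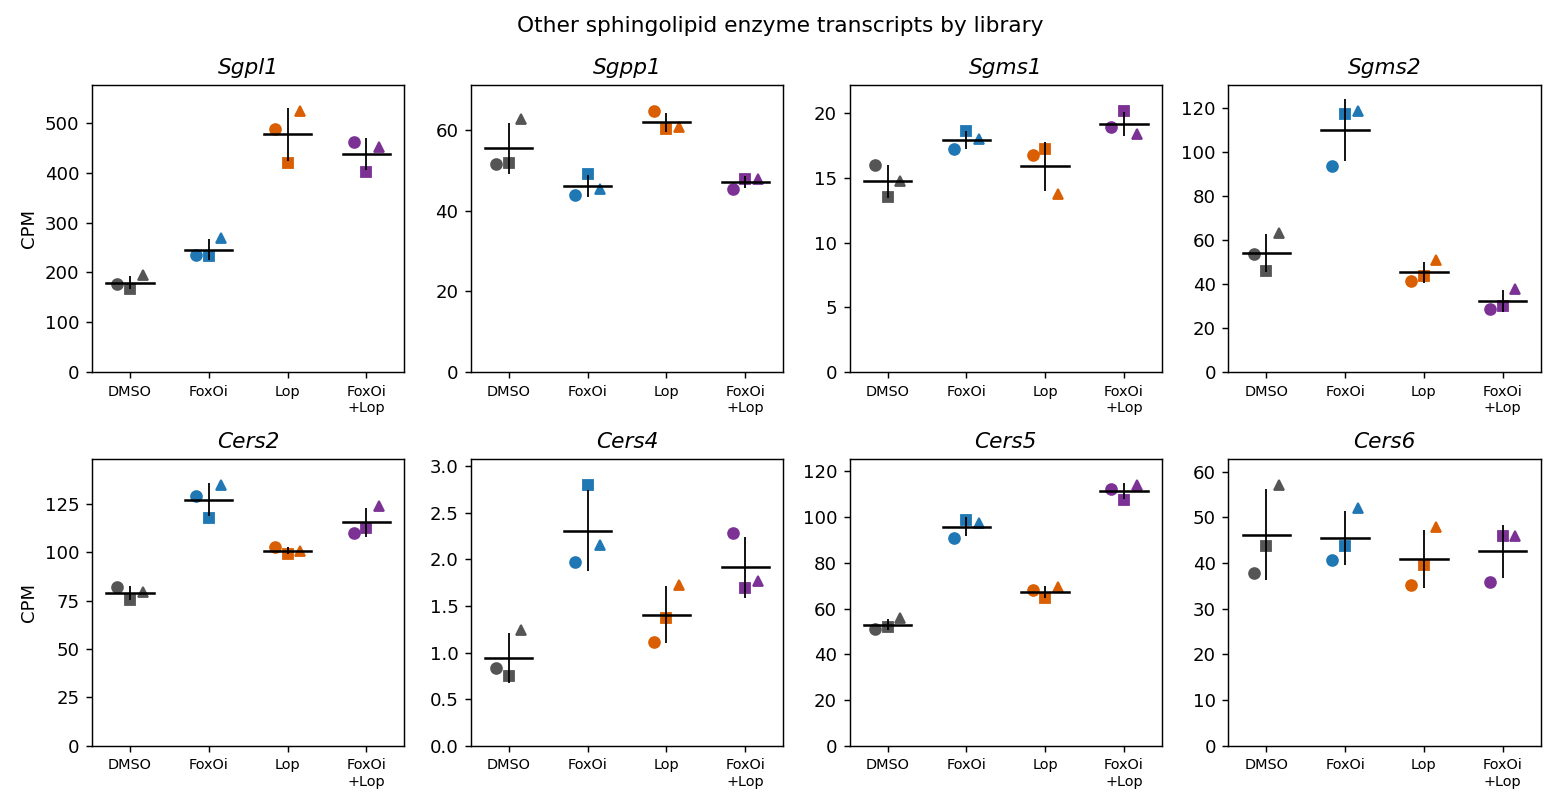
CPM (y axes from 0) of Sgpl1, Sgpp1, Sgms1, Sgms2, Cers2, Cers4, Cers5 and Cers6 in the 12 libraries by group, with circles, squares and triangles for replicates 1, 2 and 3 and lines for the mean ± SD (n = 3). Sgms2 is highest in FoxOi (93.8 to 119 CPM) and lowest in the combination (28.6 to 38.0), Cers5 steps up from DMSO to the combination, and the 4 groups of Cers6 overlap.

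Beside Cers6, the level of Cers5 was higher in each treated group than in DMSO. Summed over Cers2, Cers4, Cers5 and Cers6, the level was 58.2 to 63.2 FPKM in DMSO, 92.9 to 99.9 in FoxOi, 72.4 to 75.3 in loperamide and 93.6 to 100.7 in the combination. The ratio of Cers5 to Cers6 in FPKM was 3.26, 2.89 and 2.37 in DMSO, 5.43, 5.46 and 4.55 in FoxOi, 4.69, 3.94 and 3.53 in loperamide, and 7.57, 5.67 and 6.03 in the combination. Each combination library was above every other library on that ratio, and each DMSO library was below. Of the remaining synthases, chosen for mention after their values were seen, Cers1 had 7, 21, 38 and 27 counts per group in DMSO, FoxOi, loperamide and the combination, and Cers3 had 2, 9, 1 and 3. On these few counts Cers1 rose against DMSO in loperamide (log2 fold change 2.64 ± 0.59, adjusted p = 0.00327, edgeR) and in the combination (1.74 ± 0.63, adjusted p = 0.0360). The second call was lost in several refits, as with the 2 groups fitted alone (0.0787) or without combination replicate 2 (0.196). FoxOi against DMSO did not pass (1.27 ± 0.67, adjusted p = 0.146).

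Compared per length, Sgpl1 was the most abundant of the 10 transcripts in DMSO at 43.3 ± 3.33 FPKM (SD, n = 3), followed by Cers2 at 35.5 ± 1.27, Cers5 at 18.1 ± 1.00 and Sphk2 at 15.3 ± 1.57. Sgpp1 (9.78 ± 1.17), Sgms2 (9.30 ± 1.49) and Cers6 (6.52 ± 1.44) followed, where Sgms2 overlapped both of its neighbours. Sgms1 (3.20 ± 0.248), Sphk1 (0.244 ± 0.0871) and Cers4 (0.0990 ± 0.0286) came last, each separate from the one before it. In loperamide Sgpl1 reached 114.6 ± 12.3 FPKM and Sphk1 2.22 ± 0.727, with its highest library (3.04) above the lowest of Sgms1 (2.95). In FoxOi, Sgms2 (18.7 ± 2.36) stood above Sphk2 (14.8 ± 0.0175), and in the combination it lay at 5.52 ± 0.832, overlapping Cers6 (5.99 ± 0.760).

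**Figure D4:**
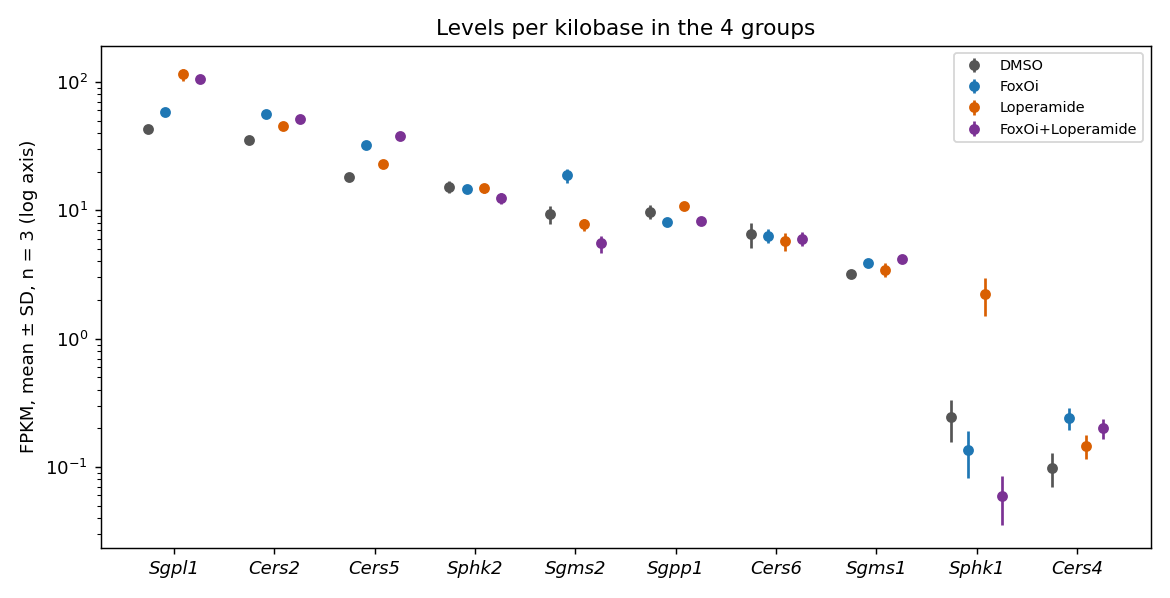
Mean FPKM ± SD (n = 3, log axis) of the 10 genes in the 4 groups, ordered by their mean over 12 libraries from Sgpl1 at 80.5 FPKM to Cers4 at 0.172. Only Sphk1 shifts by more than an order of magnitude between groups, from 0.0599 FPKM in the combination to 2.22 in loperamide.

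A wider list held 58 other genes of sphingolipid metabolism, of which 48 passed the filter on low counts. Of these 48, 18 rose and 10 fell in FoxOi against DMSO, 12 rose and 8 fell in loperamide, 20 rose and 10 fell in the combination, and 13 rose and 7 fell in the combination against FoxOi. These shares of 58.3%, 41.7%, 62.5% and 41.7% stand beside the 40.9%, 31.9%, 45.5% and 26.6% of all genes, and the medians were 0.21, 0.08, 0.14 and -0.07 on the log2 scale. Among the 10 tested genes of de novo ceramide synthesis, 4, 5, 6 and 4 rose and 3, 2, 2 and 0 fell in the 4 comparisons. Among 4 ceramidases, 3, 1, 2 and 1 rose and 0, 0, 1 and 1 fell. Among 7 sphingomyelinases and related genes, a list that also holds Samd8, a ceramide phosphoethanolamine synthase, and the sphingomyelinase-like Smpdl3a and Smpdl3b, 4, 1, 4 and 2 rose, and 1 fell in each comparison. Among 18 genes of glycosphingolipids and other ceramide fates, 5, 4, 7 and 5 rose and 3, 2, 3 and 2 fell. Among 9 genes of sphingosine 1-phosphate receptors, export and breakdown, 2, 1, 1 and 1 rose and 3 fell in each comparison.

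Degs1, the desaturase that makes ceramide from dihydroceramide, rose in all 4 comparisons. Its mean was 128 CPM in DMSO, 252 in FoxOi, 234 in loperamide and 342 in the combination. The log2 fold changes against DMSO were 0.98, 0.87 and 1.42 (adjusted p = 1.60e-07, 1.28e-06 and 3.11e-09, edgeR), and the combination rose by 0.44 over FoxOi (adjusted p = 0.000436). Kdsr, the reductase of the second step of the pathway, rose with loperamide from 13.2 to 33.4 CPM (1.34, adjusted p = 7.31e-06) and stood at 24.7 CPM in the combination (0.90, adjusted p = 0.000112). It also rose in FoxOi, to 18.4 CPM (0.48, adjusted p = 0.0134), and in the combination against FoxOi (0.42, adjusted p = 0.0338). Both of these calls were lost on unfiltered log2(FPKM + 1) (0.0707 and 0.0971). The first was also lost without DMSO replicate 2 (0.0896) or FoxOi replicate 3 (0.067). The second was also lost without FoxOi replicate 1 (0.0862), FoxOi replicate 2 (0.0999) or any one of the 3 combination libraries (0.0588 to 0.0873). Degs2, a desaturase that also hydroxylates, fell with the inhibitor, from 12.2 CPM to 6.25 in FoxOi (-0.97, adjusted p = 0.000295) and 5.59 in the combination (-1.13, adjusted p = 7.78e-05), and was at 10.5 CPM in loperamide. Col4a3bp, the carrier of ceramide to the Golgi, rose in loperamide (66.2 to 103 CPM, 0.64, adjusted p = 0.00209) and in the combination (135 CPM, 1.03, adjusted p = 1.97e-05), there also against FoxOi (0.65, adjusted p = 0.00190). In FoxOi it was at 85.9 CPM, overlapping DMSO (0.38, adjusted p = 0.0338), a call lost with the 2 groups fitted alone (0.0726), on each FPKM scale (0.0552 to 0.118), and without DMSO replicate 1 (0.186), DMSO replicate 2 (0.0857), FoxOi replicate 2 (0.0981) or FoxOi replicate 3 (0.133). B4galnt1, a synthase of complex gangliosides, fell in the combination against FoxOi, from 1.87 to 0.830 CPM (-1.17, adjusted p = 0.00397). It was also lower there than in DMSO, at 1.46 CPM (-0.81, adjusted p = 0.0279). That call was lost with DESeq2 (0.0599), without the filter on low counts (0.0667) and on unfiltered log2(FPKM + 1) (0.0806). Leaving out DMSO replicate 1 (0.0672), DMSO replicate 3 (0.0622), combination replicate 1 (0.0823) or combination replicate 2 (0.0661) lost it too.

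Plpp1, a lipid phosphate phosphatase of the cell surface, had 25.8 CPM in DMSO, 58.7 in FoxOi, 15.6 in loperamide and 21.1 in the combination. It rose in FoxOi (1.19, adjusted p = 1.58e-05, edgeR), fell in loperamide (-0.73, adjusted p = 0.00243) and fell in the combination against FoxOi (-1.47, adjusted p = 3.36e-06). Its relative Plpp2 rose from 17.1 CPM to 42.4 in FoxOi (1.31, adjusted p = 2.60e-07) and 31.9 in the combination (0.90, adjusted p = 8.43e-06). Sgpp2, the second sphingosine 1-phosphate phosphatase, fell from 68.03 CPM in DMSO to 28.3 in FoxOi (-1.26, adjusted p = 1.77e-06), was at 78.9 in loperamide, and at 52.8 in the combination was above FoxOi (0.90, adjusted p = 7.67e-05). In the combination Sgpp2 was still below DMSO (-0.37, adjusted p = 0.0226). That call was lost on unfiltered log2(FPKM + 1) (0.0804). It was also lost without DMSO replicate 2 (0.0611), DMSO replicate 3 (0.0848), combination replicate 1 (0.0814) or combination replicate 3 (0.0671). Spns2, an exporter of sphingosine 1-phosphate, fell in FoxOi (-0.68, adjusted p = 0.0120), in loperamide (-0.88, adjusted p = 0.00537) and in the combination (-1.35, adjusted p = 0.000110) against DMSO, from 3.76 CPM to 2.35, 2.03 and 1.46. It also fell in the combination against FoxOi (-0.67, adjusted p = 0.0333). That call was lost in several refits, such as DESeq2 (0.0617) and the fit without the filter on low counts (0.0816). Of the receptors, S1pr2 was at 2.62 to 3.31 CPM and S1pr4 at 0.614 to 1.20 CPM as group means, and S1pr1, S1pr3 and S1pr5 had 0 to 4 counts per group.

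**Figure D5:**
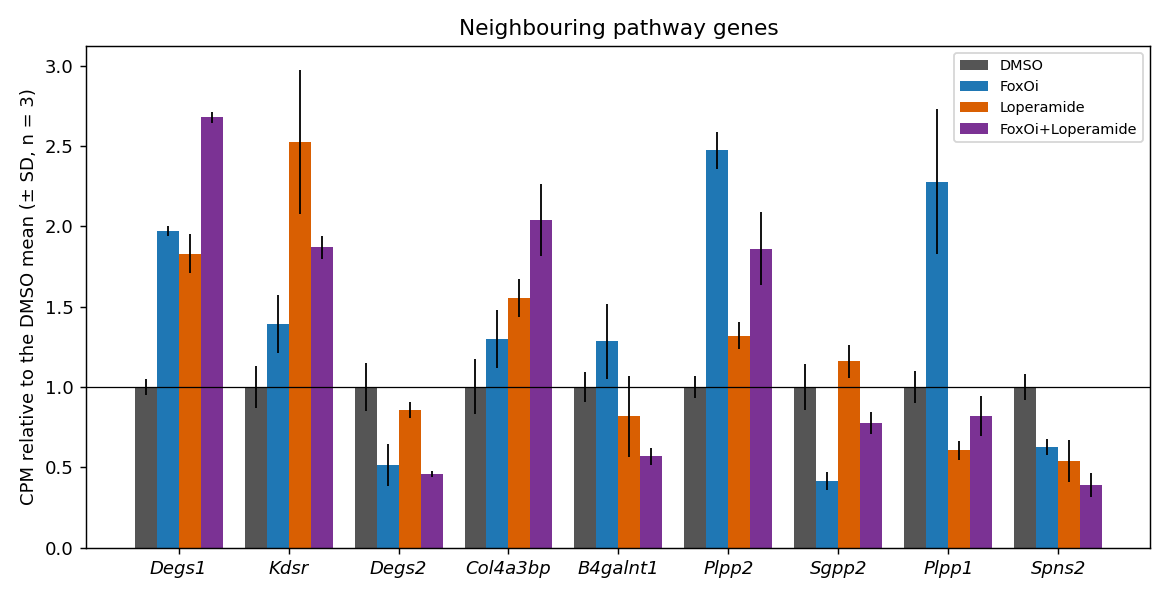
Mean CPM relative to the DMSO mean (y axis from 0, ± SD, n = 3) of 9 further genes of the pathway in the 4 groups. Degs1 is raised in each treated group, Plpp1 and Plpp2 are highest in FoxOi, Sgpp2 and Degs2 are lower in FoxOi than in DMSO, and Spns2 is lowest in the combination.

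Genes whose pattern over the 12 libraries was among the most like that of Sphk1, by Pearson's r of log2(CPM + 1) among 12364 genes, were Tmem50a (r = 0.972), Zranb1 (0.967), Mta3 (0.965), Mxi1 (0.963), Hbp1 (0.961), Nyap1 (0.960) and Ypel3 (0.960). These values are descriptions, and the 12 points share groups and libraries. The means of these genes in loperamide were 1.28 to 2.32 times those in DMSO, a smaller range than that of Sphk1 at 9.11. Hbp1, a transcriptional repressor, was at 34.9 CPM in DMSO, 24.9 in FoxOi, 81.0 in loperamide and 26.9 in the combination.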

How the data were processed

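RNA of 12 Min6 libraries was prepared with DNase, and sequenced in single 50-base reads from a stranded mRNA kit, per the labels' protocols. The authors deposited raw counts per gene and FPKM values for the same genes. STAR 2.7.5a, Picard 2.19.2 and DESeq2 stand in the submitters' processing notes, with GRCm38 and mm10. How reads were counted, and with which strand setting, is not given in the sources used here. As checked on 11568 genes, the authors' FPKM kept a nearly constant ratio to counts over DESeq2 size factors within each gene. Library offsets were at most 0.226%. The gene lengths in the FPKM were not checked, and the comparisons per length between genes rest on them. Depth ran from 10640485 to 19499216 counts, so Sphk1 and Cers4 rest on few counts outside their high groups.

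The test was edgeR 4.0.16 (R 4.3.3): filterByExpr (minimum count 10, minimum total 15), TMM scaling, a robust quasi-likelihood fit of group over all libraries, and Benjamini-Hochberg adjustment over 16808 genes. SE is the log2 fold change over the square root of F. CPM use the TMM-scaled library size. The script was tested on simulated data. The members and lists were chosen with earlier results of these data known. The other pathway genes described by name were those past the threshold with an absolute log2 fold change of at least 1 in some comparison tested and a mean of at least 1 CPM over the 12 libraries, at most 4 per list. Genes most like Sphk1 were the 8 with the highest correlation among those past that mean, without predicted genes; 1 of them is not reported here. Alternatives were DESeq2 1.42.0, no filter, the compared groups alone, limma 3.58.1 on log2(FPKM + 1) or log2(FPKM + 0.1), leaving out each library, and a replicate block. Replicates carry the same 3 library codes in each group. Deviations of same-numbered libraries correlated in all 18 pairs of groups and numbers (r = 0.124 to 0.651 over 16808 genes), so the numbers were taken to pair the libraries. The main fit left this pairing out, and only the block fit used it. A gene that did not pass in the main fit could therefore pass with the block.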

Additional observations from a re-analysis of the deposited data

Results flagged for a closer look

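For 5 genes every library lay on one side of the mean of the group without a compound when that compound was given alone, and on the other side when the other compound was present. None of these differences was tested. The share of all genes that meet the same rule was not counted, so the number of genes flagged has no background beside it. The effects are per-library log2 differences from the mean of the matching group without that compound. Sphk1 was 2.78 to 3.64 above DMSO with loperamide alone and -2.09 to -0.81 from FoxOi when loperamide was added to the inhibitor, a fitted difference of the effects of -4.28. That value uses the libraries that chose the gene. Sgms2 was 0.79 to 1.13 above DMSO with the inhibitor alone and -0.67 to -0.26 from loperamide when the inhibitor was added, a difference of -1.52. Sgpl1 was 0.37 to 0.58 above DMSO with the inhibitor and -0.25 to -0.05 from loperamide when both were present, a difference of -0.58. For loperamide, Cers2 was 0.33 to 0.38 above DMSO and -0.21 to -0.04 from FoxOi, a difference of -0.49. Cers4 was 0.25 to 0.87 above DMSO and -0.45 to -0.01 from FoxOi, a difference of -0.87, but compared by replicate number the combination was above FoxOi for Cers4 in 1 of 3 pairs. The combination against FoxOi did not pass for Cers2 or Cers4, and the combination against loperamide was not tested for any of the genes. The combination libraries overlapped those of loperamide for Sgpl1, and those of FoxOi for Cers2 and Cers4.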

How the results depend on the processing

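Of 897 tested values of single genes under the alternatives, 806 kept their direction and their side of the threshold, 78 lost their call, 5 gained one and 8 changed sign. Another 336 values were given without a test, not counting Sphk1 in the combination against loperamide, which is described below. Of these 336, 318 moved by less than the spread between replicates and 18 by more. In 15 the sign changed, all of them the interaction of Sgms1, the interaction of Cers6 or Cers6 in the combination against loperamide. With the replicate block, which pairs libraries by number, the genes passing rose to 8179 in loperamide against DMSO, 7504 in the combination against FoxOi and 4334 for the interaction, from 5370, 4465 and 1594; beside the calls named in the report it changed no other call of the 10 genes. The difference of Sphk1 between the combination and loperamide was -5.35 to -4.86 with single libraries left out, -1.58 on log2(FPKM + 1) with and without the filter, and -3.82 on log2(FPKM + 0.1), scales that by construction shrink low genes. On these FPKM scales it moved by more than the spread between replicates. Genes of the list called in the combination against DMSO fell from 8 to 5 on unfiltered log2(FPKM + 1) and to 5 to 7 with single libraries left out, the 5 being without DMSO replicate 2. Of all genes, the number passing in that comparison fell from 7642 to 6658 and to 6437 to 7300. How many genes were tested in these refits was not recorded, so their shares cannot be set beside the list. Among tested values, signs changed where the main value did not pass: leaving out single libraries gave Sphk2 in loperamide against DMSO -0.14 to 0.0071, and Cers6 -0.18 to 0.12 in FoxOi against DMSO, -0.25 to 0.049 in the combination against DMSO and -0.15 to 0.013 in the combination against FoxOi. The causes of these changes were not tested. Depth limits Sphk1, with 2 to 5 counts per combination library, and Cers4, with 321 counts in all.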
